A study of Homo sapiens with 8 samples.

Results

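The mRNAs of 10 growth factor receptors, EGFR, ERBB2, ERBB3, MET, IGF1R, INSR, FGFR1, FGFR2, FGFR3, and FGFR4, were followed in RNA bound to ribosomal protein S6 (RPS6) and in the matching cell lysate. They were chosen by gene symbol, by a rule that uses no measured value, and make up 10 of the 57756 genes in the tables. The choice was made with earlier results of these data known. All 10 were measured in every library, and all 10 passed the minimum of 10 counts. RPS6 is a protein of the small ribosomal subunit. RNA immunoprecipitation (RIP) with an RPS6 antibody, followed by sequencing, was carried out in 4 cancer cell lines, for which the labels name no treatment: Hep3B (hepatocellular carcinoma), HCT116 (colorectal cancer), DU145 (prostate cancer), and SW1990 (pancreatic cancer). Each cell line gave 1 RIP library and 1 input library, the RNA of the lysate before the pull-down, so that the 8 libraries form 4 pairs and no pair is repeated within its line. P-values therefore speak only to these 4 lines, each represented by a single preparation. The libraries analysed here hold no pull-down with a control antibody. For the liver cancer pair, the sample titles and the paper name Hep3B while the cell line field names Huh7. The pair is called Hep3B here.

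Receptor tyrosine kinases are membrane proteins that bind growth factors outside the cell and phosphorylate tyrosines inside it. Ligand binding brings receptors together in pairs, and adaptor proteins that dock on the phosphorylated tails pass the signal to the RAS-MAPK and PI3K-AKT cascades. The latter leads through mTOR to the kinases that phosphorylate RPS6. Because the receptors are membrane proteins, their mRNAs are translated by ribosomes at the endoplasmic reticulum.

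The inputs held 35796159 to 54209614 fragments and the RIP libraries 34630354 to 42610068. Liver markers fitted a liver origin of the Hep3B pair, with 9 of 9 at 1 FPKM or above in its input (FPKM, fragments per kilobase of transcript and 1000000 fragments). They cannot tell Hep3B from Huh7, since the paper lists both as hepatocellular carcinoma lines. The other labels were borne out only in part. Of 7 intestinal markers only CDX2 reached 1 FPKM in the HCT116 input, where CDX1, VIL1, and LGR5 were at 0, and of 7 prostate markers 1 did so in the DU145 input, where KLK3, FOLH1, and HOXB13 were at 0. Of 7 pancreatic markers, 6 reached 1 FPKM in the SW1990 input, but so did 5 in the HCT116 input and 4 in the DU145 input, and SW1990 had 4 of the 7 intestinal markers, with CDX2 at 86.6 FPKM. All 4 epithelial markers reached 1 FPKM in every library. All 13 mitochondrially encoded mRNAs, which are translated by other ribosomes, were lower in RIP, as were the nuclear RNAs MALAT1 and NEAT1.

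All 10 receptor mRNAs were higher in RPS6 RIP than in input. The log2 fold change was largest for ERBB2, 2.60 ± 0.21 (standard error, n = 4 pairs), and smallest for MET, 0.72 ± 0.23, with a median of 1.95 over the 10. In edgeR's quasi-likelihood test, blocked by cell line, 10 of 10 receptors were called higher and 0 lower, at a Benjamini-Hochberg adjusted p of 0.05 over 19921 genes. Its p-values and standard errors also draw on the spread of the other genes tested, so they do not rest on the 4 pairs of 1 gene alone. Of all genes tested, 26.5% were called higher and 24.9% lower, and the median log2 fold change was -0.05. Among 13561 protein-coding genes, 32.3% were called higher, with a median of 0.13. The call on MET was lost under other scalings and without the DU145 or the SW1990 pair, as given with its values. Without the block, where differences between lines count as spread, ERBB2 and FGFR1 were called and the other 8 were not.

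**Figure D1:**
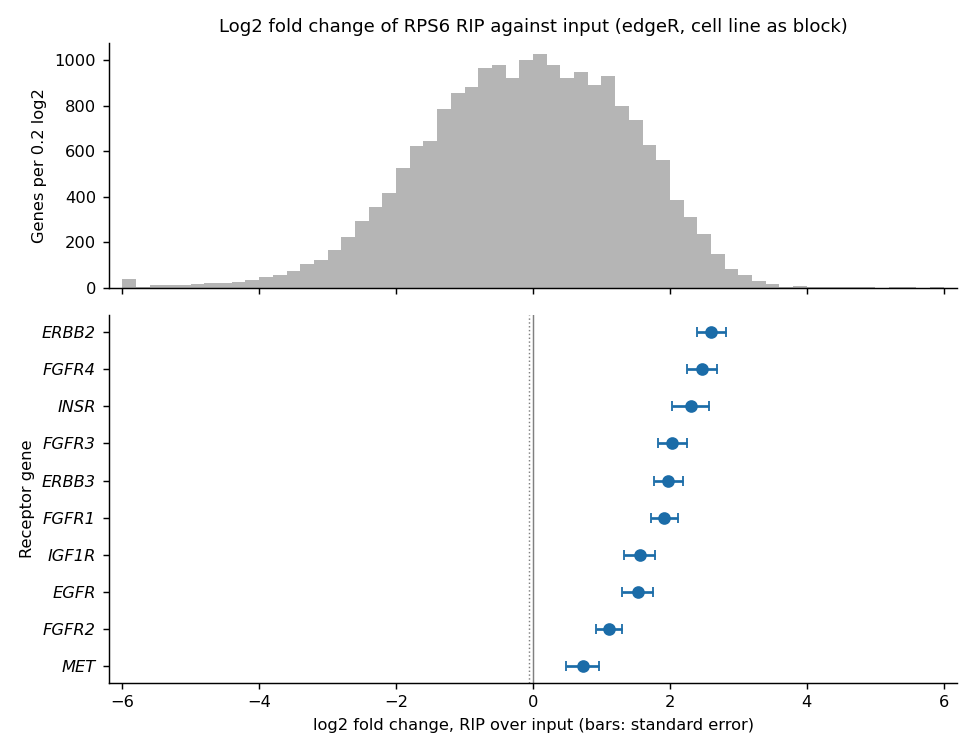
The upper panel shows how many of the 19921 genes tested had each log2 fold change of RPS6 RIP against input (edgeR, blocked by cell line), and the lower panel shows the fold change of each receptor with its standard error, on the same axis. All 10 receptors lie to the right of the median of all genes (dotted line at -0.05), from MET at 0.72 to ERBB2 at 2.60.

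Within single lines the same direction was seen. On the log2(FPKM + 1) scale, at least 2-fold higher levels in RIP were found for 10 of 10 receptors in Hep3B, where 22.8% of 16900 genes with a mean of at least 1 FPKM passed the same fold. In HCT116, 8 receptors passed against 22.4% of genes, and in DU145, 8 against 22.1%. In SW1990, 10 passed against 23.8%. The receptors under 2-fold on this scale were IGF1R and FGFR2 in HCT116 and MET and FGFR2 in DU145, with log2 differences of 0.80 to 0.95. Plain FPKM folds were 2.12 and 2.01 for the pair in HCT116 and 1.75 and 3.59 for the pair in DU145. FGFR2 was at 0.421 FPKM in the DU145 input, under the 1 FPKM added. With 0.1 FPKM added, 9 receptors passed in HCT116 and 9 in DU145, as did 4498 and 4490 of the 16900 genes. No receptor was at least 2-fold lower in any line. The exact sign-flip permutation test over the 4 lines, two-sided, gave p = 0.125 for each receptor, the smallest that 4 pairs allow. It used the 4 ratios of that receptor alone. A stricter description asks whether the lowest RIP value lay above the highest input value over all lines. This held for 2 receptors, ERBB2 and FGFR1, and for 12.3% of genes.

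**Figure D2:**
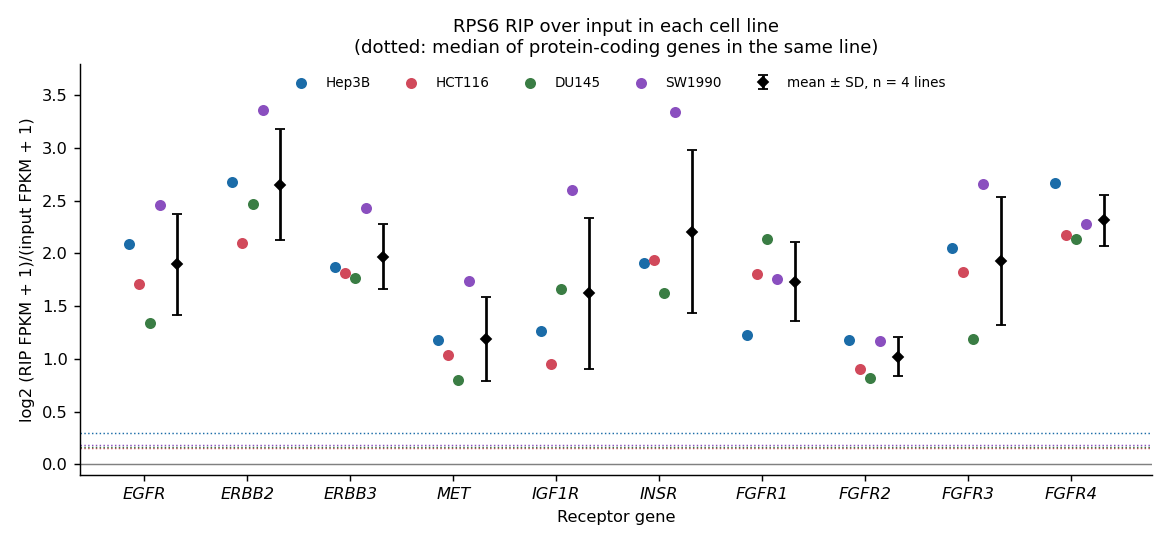
Each point is the log2 ratio of RIP to input, taken on FPKM + 1, of 1 receptor in 1 cell line, and the black marks are the mean ± SD over the 4 lines. All 40 points lie above 0 and above the medians of protein-coding genes (dotted lines, 0.16 to 0.30), and SW1990 has the highest point for 7 of 10 receptors.

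The promoter windows of the receptors with the 3 highest and the lowest fold change are shown for context. RIP and input of a line come from the same lysate, so their ratio is no measure of promoter activity. A window of 250 bases before the annotated start of the gene was found for 7 of the 10 receptors in the RefSeq table (GRCh38.p14). ERBB3 and FGFR1 had no entry, and none of the 5 windows of FGFR2 lay at the start of the gene as RefSeq gives it. Of the 7 windows, 6 held at least 1 GC box (GGGCGG on either strand, so also CCGCCC), against 42.6% of all 35116 windows. TATAAA on either strand was in 0 of the 7 and in 10.7% of all. GC content ranged from 65.6% to 86.8%, against a median of 58.0%. The last 150 bases before the start are printed 5′ to 3′ on the strand of the gene, with GC boxes in capitals.
ERBB2, chr17:39687944-39688093, plus strand: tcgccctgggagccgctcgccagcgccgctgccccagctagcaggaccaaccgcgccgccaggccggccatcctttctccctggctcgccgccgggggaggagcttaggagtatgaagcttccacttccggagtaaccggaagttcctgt
FGFR4, chr5:177086765-177086914, plus strand: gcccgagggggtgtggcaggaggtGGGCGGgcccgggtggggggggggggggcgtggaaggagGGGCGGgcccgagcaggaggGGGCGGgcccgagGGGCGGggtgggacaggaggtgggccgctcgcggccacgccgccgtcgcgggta
INSR, chr19:7294415-7294564, minus strand: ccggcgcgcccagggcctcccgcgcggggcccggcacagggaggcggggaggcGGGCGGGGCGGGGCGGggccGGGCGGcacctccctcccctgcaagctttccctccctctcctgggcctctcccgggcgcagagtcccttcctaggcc
MET, chr7:116672046-116672195, plus strand: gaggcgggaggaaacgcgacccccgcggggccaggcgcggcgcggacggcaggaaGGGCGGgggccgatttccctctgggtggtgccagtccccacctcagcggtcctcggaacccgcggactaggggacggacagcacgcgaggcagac
The window of ERBB2 is the one without a GC box, and those of INSR and FGFR4 hold 4 each in the printed stretch. A match of letters is a description of the window and not a binding site, and no measurement of promoter activity was made in these libraries.

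In the ErbB family, EGFR binds EGF and related ligands, ERBB2 has no known ligand and pairs with the other members, and ERBB3 binds neuregulins but has little kinase activity of its own. ERBB2 was at 9.93 FPKM in input and 69.1 FPKM in RIP in Hep3B, 16.5 and 74.1 FPKM in HCT116, 25.8 and 147 FPKM in DU145, and 19.7 and 212 FPKM in SW1990. Every RIP library was higher than every input, so the groups did not overlap, and the highest level was that of the SW1990 RIP. Its mean log2 ratio was 2.65 ± 0.53 (SD, n = 4), and edgeR gave a log2 fold change of 2.60 with an adjusted p of 1.31e-05. The ERBB2 locus (hg19, chromosome 17, 37827374 to 37887040) is shared in the tables with MIEN1, PGAP3, and MIR4728, so reads may have been split between them.

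EGFR was at 44.4 FPKM in input and 192 FPKM in RIP in Hep3B, 9.64 and 33.8 FPKM in HCT116, 39.2 and 101 FPKM in DU145, and 8.04 and 48.6 FPKM in SW1990. RIP exceeded input in each line. The groups overlapped all the same, because the HCT116 RIP was under the inputs of Hep3B and DU145, the lines with the most EGFR. The fold change was 1.53 ± 0.23 on the log2 scale (edgeR adjusted p = 0.000300). ERBB3 was at 52.6 FPKM in input and 195 FPKM in RIP in Hep3B, 9.04 and 34.4 FPKM in HCT116, 8.41 and 30.9 FPKM in DU145, and 15.9 and 90.0 FPKM in SW1990. Hep3B was the highest line in both fractions and DU145 the lowest, and the groups overlapped. The log2 ratio of ERBB3 was nearly the same in Hep3B, HCT116, and DU145, from 1.76 to 1.87, and was 2.43 in SW1990. Its fold change in the fit was 1.98 ± 0.21 (edgeR adjusted p = 4.02e-05). The fourth member of the family, ERBB4, was added after its values were seen. It was at 2.53 FPKM in input and 3.36 FPKM in RIP in Hep3B and under 0.1 FPKM in the other lines, with a log2 fold change of 0.03 ± 0.93 (edgeR adjusted p = 0.982).

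**Figure D3:**
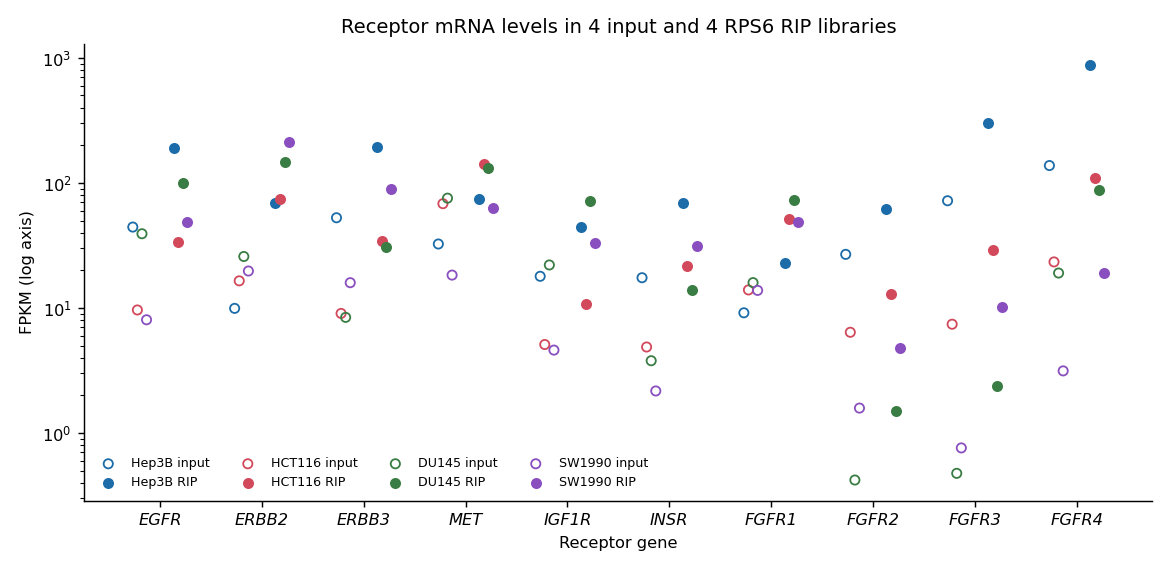
The level of each receptor is shown in FPKM on a log axis, with open circles for the 4 inputs and filled circles for the 4 RPS6 RIP libraries, coloured by cell line. Filled circles lie above the open circle of the same colour for every receptor, and FGFR2, FGFR3, and FGFR4 spread most between lines, with inputs from 0.421 to 138 FPKM.

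MET, the receptor for hepatocyte growth factor, had the smallest difference, and was the 1 receptor whose call was lost when the scaling was changed. It was at 32.5 FPKM in input and 74.7 FPKM in RIP in Hep3B, 68.2 and 141 FPKM in HCT116, 75.5 and 132 FPKM in DU145, and 18.3 and 63.6 FPKM in SW1990. RIP was higher in each line by FPKM, while the RIP levels of Hep3B and SW1990 were under the input level of DU145. In the blocked fit the log2 fold change was 0.72 ± 0.23 (edgeR adjusted p = 0.0252). The adjusted p was 0.0536 with upper-quartile scaling and 0.229 with library totals alone. It was 0.0695 without the DU145 pair and 0.111 without the SW1990 pair, and 0.602 in Hep3B and HCT116 alone. The sign stayed positive in these fits.

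MET also differed between the scales on which it was measured. As fragments per 1000000 recovered from the deposited counts, MET was at 418 in the HCT116 input and 387 in the HCT116 RIP, a ratio of 0.926 (95% counting interval 0.907 to 0.946), where FPKM gave 2.07. In Hep3B and DU145 the ratio by fragments was 1.15 and 1.21, and in SW1990 it was 2.23. Of 40 combinations of receptor and line, 39 had an interval above 1 by fragments, and MET in HCT116 was the 1 below. The share of all genes with an interval above 1 was not counted. The FPKM fold exceeded the fragment fold in 39 of the 40, and also over all genes, by a median of 1.37 to 1.54 times in the 4 lines. Intervals cover counting error only. For EGFR, the fragment folds ran from 1.69 in DU145 through 2.03 in HCT116 and 2.23 in Hep3B to 3.45 in SW1990, against FPKM folds of 2.57, 3.50, 4.32, and 6.04. FPKM divides by the transcript length that the software inferred for each library. The length implied by counts over FPKM was lower in RIP than input by 0.54 on the log2 scale for MET in HCT116, relative to all genes, of which 80% lay between -0.31 and 0.33. For EGFR and MET the implied length was lower in 4 of 4 lines, for FGFR4 it was higher in each line, by 0.12 to 0.37, and for FGFR1 it was higher in SW1990 by 0.60. Some of these values were small. In DU145, EGFR at -0.10, MET at -0.03, and FGFR4 at 0.13 lay inside the range of 80% of genes, -0.35 to 0.35. The 2 scales also differ in library scaling. The deposited counts were scaled by a step per library, 0.732 in the HCT116 input and 1.09 in the HCT116 RIP, which the fragments leave out. The parts of inferred length and of library scaling in these folds were not tested.

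**Figure D4:**
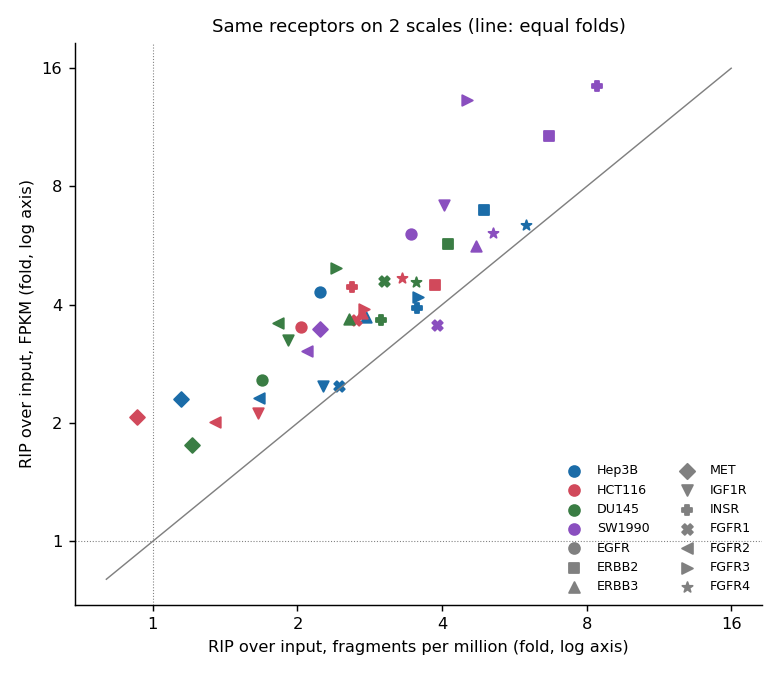
For each receptor (symbol) in each cell line (colour), the fold of RIP over input in FPKM is plotted against the fold in fragments per 1000000, both on log axes, and the line marks equal folds. All but 1 of the 40 points lie above the line, and MET in HCT116 is at 0.926 by fragments and 2.07 by FPKM.

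IGF1R, the receptor for insulin-like growth factors, and INSR, the insulin receptor, are closely related proteins that can pair with each other. IGF1R was at 17.9 FPKM in input and 44.4 FPKM in RIP in Hep3B, 5.10 and 10.8 FPKM in HCT116, 22.1 and 71.9 FPKM in DU145, and 4.60 and 33.0 FPKM in SW1990. DU145 was highest in both fractions, and the groups overlapped, since the HCT116 RIP was under the inputs of DU145 and Hep3B. The log2 fold change was 1.56 ± 0.23 (edgeR adjusted p = 0.000262). INSR was at 17.4 FPKM in input and 68.5 FPKM in RIP in Hep3B, 4.87 and 21.6 FPKM in HCT116, 3.78 and 13.8 FPKM in DU145, and 2.17 and 31.2 FPKM in SW1990. Only the DU145 RIP was under the highest input, that of Hep3B. INSR had a log2 fold change of 2.30 ± 0.27 (edgeR adjusted p = 6.97e-05). Both mRNAs had the widest spread of ratios among the 10, with a log2 ratio of 1.62 ± 0.72 for IGF1R and 2.21 ± 0.77 for INSR (SD, n = 4). SW1990 gave the highest ratio of each, 7.18-fold for IGF1R and 14.4-fold for INSR in FPKM, and without SW1990 their mean log2 ratios were 1.29 and 1.83.

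The 4 FGF receptors bind fibroblast growth factors, and FGFR4 serves in liver cells as the receptor for FGF19. FGFR4 was at 138 FPKM in input and 881 FPKM in RIP in Hep3B, 23.3 and 109 FPKM in HCT116, 19.0 and 87.1 FPKM in DU145, and 3.14 and 19.1 FPKM in SW1990. Hep3B stood far above the other lines, and its input exceeded the RIP levels of the other 3. The ratios were close to each other on the log2 scale, 2.32 ± 0.24 (SD, n = 4), and the fitted fold change was 2.47 ± 0.22 (edgeR adjusted p = 1.59e-05). FGFR3 was at 72.0 FPKM in input and 301 FPKM in RIP in Hep3B, 7.41 and 28.9 FPKM in HCT116, 0.476 and 2.37 FPKM in DU145, and 0.760 and 10.1 FPKM in SW1990. Levels were low outside Hep3B and HCT116, with 120 fragments in the DU145 input and 135 in the SW1990 input. The fold change was 2.04 ± 0.21 (edgeR adjusted p = 2.93e-05).

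FGFR2 was at 26.8 FPKM in input and 62.1 FPKM in RIP in Hep3B, 6.39 and 12.8 FPKM in HCT116, 0.421 and 1.51 FPKM in DU145, and 1.58 and 4.82 FPKM in SW1990. The order of the lines was the same in both fractions, and the DU145 values rested on 76 and 94 fragments. Its log2 fold change of 1.11 ± 0.19 (edgeR adjusted p = 0.000648) was the second smallest of the 10, and the adjusted p was 0.0778 in Hep3B and HCT116 alone. FGFR1 was at 9.15 FPKM in input and 22.7 FPKM in RIP in Hep3B, 13.9 and 51.1 FPKM in HCT116, 15.9 and 73.5 FPKM in DU145, and 13.8 and 49.1 FPKM in SW1990. All 4 RIP libraries lay above all 4 inputs. The fold change was 1.91 ± 0.20 (edgeR adjusted p = 3.01e-05). By input FPKM, the highest line was 1.74 times the lowest for FGFR1, against 63.8 times for FGFR2, 151 times for FGFR3, and 43.9 times for FGFR4. By fragments the inputs of FGFR1 spanned 3.35 times and those of ERBB2, the narrowest, 2.05 times. The reads of FGFR1 may be shared with a pseudogene, RPS20P22, listed on the same locus. The same limit holds for EGFR, ERBB3, IGF1R, and INSR, whose loci list 2, 3, 6, and 1 other genes. Among these are PA2G4 for ERBB3 and SYNM for IGF1R.

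The receptors with the highest levels differed between some of the lines and were shared by others. The 2 tables, Hep3B with HCT116 and DU145 with SW1990, were normalized separately by the authors, so levels across them hold only to that extent. In the Hep3B input FGFR4 made up 32.7% of the summed FPKM of the 10 receptors and FGFR3 17.1%, and in the Hep3B RIP these shares were 46.1% and 15.8%. MET led in the HCT116 and DU145 inputs, with 41.5% and 35.8%, and fell to 27.3% and 20.0% of the sum in RIP. In DU145 the leading receptor in RIP was ERBB2, with 22.3% against 12.2% in input. SW1990 was led by ERBB2 in both, with 22.4% in input and 37.8% in RIP. The summed level of the 10 went from 420 to 1910 FPKM in Hep3B, from 164 to 518 FPKM in HCT116, from 211 to 661 FPKM in DU145, and from 88.1 to 562 FPKM in SW1990. These are folds of 4.54, 3.15, 3.14, and 6.38, against 3.14, 1.79, 1.94, and 4.31 for the summed fragments per 1000000. In bulk libraries, more cells with an mRNA and more mRNA per cell cannot be told apart. With 1 library of a kind per line, differences between lines have counting intervals only. By fragments per 1000000, neighbouring lines had intervals that overlapped only for ERBB2 in the RIP libraries of HCT116 and Hep3B. Some orders still changed with the scale. MET was highest in the DU145 input by FPKM and in the HCT116 input by fragments. In RIP, MET was highest in HCT116 by FPKM and in DU145 by fragments, and HCT116 and SW1990 changed places for FGFR1.

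On the log2(FPKM + 1) scale, the ratio of RIP to input was highest in SW1990 for 7 of the 10 receptors, the exceptions being FGFR2 and FGFR4 in Hep3B and FGFR1 in DU145. Plain FPKM folds also put 7 highest in SW1990, with FGFR1 and FGFR2 highest in DU145 and FGFR4 in Hep3B. By fragments per 1000000, 9 were highest in SW1990, and FGFR4 in Hep3B. On the log2(FPKM + 1) scale SW1990 gave the highest ratio for 23.4% of all 16900 genes and for 31.2% of the 5030 of these that were called higher. The line with the lowest ratio depended on the scale. DU145 was lowest for 7 receptors by log2(FPKM + 1), where it was lowest for 22.9% of all genes, for 5 by plain FPKM, and for 3 by fragments, where HCT116 was lowest for 6. Shares over all genes were taken on the log2(FPKM + 1) scale only. Over all genes, the FPKM fold exceeded the fragment fold by a median of 1.54 times in HCT116 and 1.37 times in SW1990. The counts of receptors are a description, since no line has a second pair of libraries.

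The rest of the pathway was read from lists of its known components, to be set beside the 26.5% of all genes called higher and 24.9% called lower. Among protein-coding genes, the nearer background for these lists, 32.3% were called higher. Without the block fewer were called in every list, as 4 in place of 23 of the other receptor tyrosine kinases. Of 37 other receptor tyrosine kinases tested, 23 were higher in RIP (62.2%) and 0 lower, with a median log2 fold change of 1.70. EPHB3, an ephrin receptor, rose most, by 2.91 ± 0.25, from 4.80 to 23.4 FPKM in SW1990. MST1R, the receptor most closely related to MET, rose by 2.73 ± 0.28, from 18.0 to 89.5 FPKM in SW1990. The lowest called were MERTK, a receptor for GAS6, at 0.78 ± 0.26 and EPHA4 at 1.21 ± 0.42. Of 10 co-receptors, 7 were higher and 0 lower, and the 3 not called, KLB, SDC4, and CD44, had log2 fold changes of -1.03, -0.28, and -0.21. Without the block 1 of the 10 was called higher, and with no minimum on counts 1 was lower. PLXNB1, a semaphorin receptor that associates with MET, rose by 2.76 ± 0.19, from 25.9 to 132 FPKM in Hep3B, and GPC1, a heparan sulfate proteoglycan, rose by 2.68 ± 0.21. Among 13 proteases that process receptors or ligands, with their regulators, 8 were higher (61.5%) and 1 lower. ST14, which activates hepatocyte growth factor, rose by 2.61 ± 0.20, while ADAM17, which sheds EGF family ligands, fell by 0.59 on the log2 scale (edgeR adjusted p = 0.0212).

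Of 19 ligands tested, 3 were higher in RIP (15.8%) and 6 lower (31.6%), 10 were not called, and the median log2 fold change was -0.81. The share lower was near that of all genes, 24.9%. DESeq2 called 5 higher and 6 lower, and the fit without the block 0 and 2. The 6 were NRG4, BTC, FGF9, EREG, AREG, and FGF2. NRG4, a ligand of ERBB4, fell by 2.98 on the log2 scale, from 4.42 to 1.28 FPKM in DU145 (edgeR adjusted p = 0.00346), and BTC, a ligand of EGFR, fell by 2.82. The highest were IGF2, a ligand of IGF1R and INSR, at 2.54 ± 0.67, and NRG2 at 2.05 ± 0.41. IGF2 was at 1456 FPKM in input and 1949 FPKM in RIP in Hep3B, and at 5.12 and 88.5 FPKM in HCT116, so its fold was smaller in the line where it was most abundant.

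Inside the cell, of 22 adaptors and substrates, 11 were higher and 4 lower (18.2%), and without the block 4 and 0. SH2B2 rose by 2.48 ± 0.24 and PLCG1, a phospholipase that docks on several of the receptors, by 2.24 ± 0.29. The 4 lower were FRS2, the main docking protein of the FGF receptors, at -1.91 ± 0.21, NCK1 at -1.20 ± 0.22, PTPN11, and SOS1. Of 21 genes of the RAS-MAPK and PI3K-AKT cascades, 11 were higher (52.4%) and 4 lower (19.0%), with PIK3R2 listed under 2 gene entries. NRAS, a RAS GTPase, was at 57.8 FPKM in input and 41.7 FPKM in RIP in Hep3B, 73.5 and 29.8 FPKM in HCT116, 46.4 and 21.5 FPKM in DU145, and 50.6 and 32.5 FPKM in SW1990. All 4 of its RIP levels were under all 4 inputs, and the log2 fold change was -1.21 ± 0.20 (edgeR adjusted p = 0.000499). The share of all genes with every RIP level under every input was not counted. The highest called of the cascade were PIK3CD at 2.06 ± 0.21 and 1 entry of PIK3R2 at 1.94 ± 0.24. The other entry of PIK3R2 was at 2.48 ± 1.72 and was not called (edgeR adjusted p = 0.255). Of 33 negative regulators, 13 were higher (39.4%) and 8 lower (24.2%). Among 13561 protein-coding genes, 32.3% were higher and 3533 genes lower, and of all genes 24.9% were lower. Neither share of the negative regulators stood far from the background. The largest fold changes called were those of the receptor phosphatase PTPRF at 2.71 ± 0.27 and the ubiquitin ligase CBLC at 1.92 ± 0.20, and the lowest those of SOCS4 at -2.83 ± 0.24 and the phosphatase PTPN2 at -1.88 ± 0.20. Differences between the lists were not tested.

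**Figure D5:**
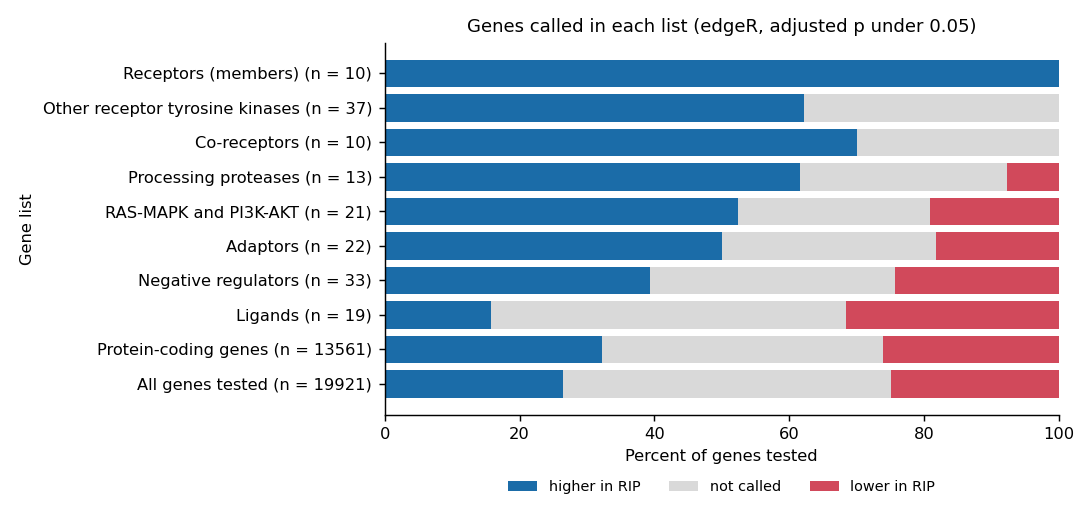
Each bar gives the percent of the tested genes of a list that were called higher in RPS6 RIP (blue), lower (red), or neither (grey) by edgeR at an adjusted p of 0.05, with the number tested in brackets. The 10 receptors were all higher, other receptor tyrosine kinases and co-receptors had none lower, and ligands had more lower (6) than higher (3).

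Transcript length moved with the fold change. By the length that counts and FPKM imply, 9 of the 10 receptors lay in the longest of 3 equal classes of tested genes and FGFR4 in the middle class. The share of genes called higher was 13.4% in the shortest class, 28.7% in the middle, and 37.5% in the longest. Across the 19921 genes, log2 fold change correlated with log2 length with Pearson's r = 0.29 and Spearman's rho = 0.27, where genes are not independent and share the 8 libraries. Within the 10, the longest, EGFR at 10.6 kb, had a fold change below the median of the family, and FGFR4, the shortest at 2.14 kb, had the second highest. The part of length in the receptors' fold changes was not tested.

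The other receptor tyrosine kinase most like each receptor was sought among 26 with a mean of at least 1 FPKM, by the Pearson correlation of log2(FPKM + 1) over the 8 libraries. EPHA2 was closest to FGFR1 (r = 0.96) and to ERBB2 (r = 0.95). TYRO3 was closest to INSR (r = 0.91), and LTK to FGFR2 (r = 0.90) and FGFR3 (r = 0.88). LMTK2 was closest to IGF1R (r = 0.89) and MET (r = 0.78), EPHB4 to EGFR and EPHA1 to ERBB3 (both r = 0.85), and PDGFRB to FGFR4 (r = 0.83). Over the 4 inputs alone the closest receptor was another for 6 of the 10, ERBB2, ERBB3, MET, IGF1R, FGFR1, and FGFR4. The 8 points are 4 pairs from the same lines, so the values describe these libraries only.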

How the data were processed

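RNA from RPS6 pull-downs and inputs of 4 cell lines was sequenced as 1 library each. Per the labels, libraries were made with a stranded total RNA kit, and the submitters' processing notes name CASAVA 1.8, TopHat2 2.0.9, and hg19. The counting tool and its strand setting are not given in the sources used here. The authors deposited FPKM per gene, in 2 tables normalized separately. The authors also deposited estimated counts, which were scaled by 1 step per library and need not be whole. The tables of single pairs hold the authors' fold changes, p-values, and q-values and were not used.

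Fragments were recovered by dividing counts by each library's step, and 89.0% to 92.2% of values came out whole (tolerance 0.01). The design had assumed plain counts. The estimates were rounded and tested with edgeR 4.0.16 (R 4.3.3) by quasi-likelihood, with TMM, the cell line as a block, a mean of at least 10 counts, and Benjamini-Hochberg adjustment at 0.05. The cell line pairs the libraries: across genes, which are not independent, log2 levels centred within RIP and within input correlated at r of 0.80 to 0.87 between libraries of 1 line, and at -0.01 or below between lines. Centring on the mean of the 4 lines itself pulls the values between lines below 0 when those within a line are positive. Log2 ratios used FPKM + 1. Counting intervals are at 95%. Alternatives used no block, DESeq2 1.42.0, other scalings and minimums, recovered fragments, limma 3.58.1 on log2(FPKM + 1) and log2(FPKM + 0.1), and left out each pair. Each table alone was added after seeing the data. The other steps used SciPy 1.17.1, pandas 2.3.3, NumPy 2.4.6, and matplotlib 3.10.9 under Python 3.11.15.

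The receptors and gene lists were chosen with earlier results of these data known. Genes named are the 10 receptors, from each other list the 2 called genes with the largest and the 2 with the smallest log2 fold change whose mean reached 1 FPKM, and the nearest other receptor of each. Not every gene that meets this rule is named. ERBB4 and the remaining members of short lists were named after their values were seen. Results of 2 listed genes are not reported here.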

Additional observations from a re-analysis of the deposited data

Results flagged for a closer look

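The log2 ratio of RIP to input of ERBB3 was flagged because SW1990 stood apart from the other lines. Its ratio was 2.43, against 1.76 to 1.87 in the other 3, so that the gap to its neighbour was 0.836 of the whole range, above Dixon's critical value for 4 values. It was the 1 flagged among 30 groups of 4 values searched, and chance alone flags about 1 group in 20.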

How the results depend on the processing

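Over 15 alternatives for each of the 10 receptors, 136 of 150 kept the direction and the call, 14 lost the call, and 0 reversed. Without the replicate block, which pairs the libraries by cell line, 1427 genes were higher and 1344 lower, and 2 receptors, ERBB2 and FGFR1, were called, which accounts for 8 of the 14. The others were MET with upper-quartile scaling, with library totals alone, without the DU145 pair, without the SW1990 pair, and in the first table alone, and FGFR2 in the first table alone. The log2 fold change of MET ranged from 0.33 to 1.21. The first table alone (Hep3B and HCT116), chosen after seeing the data, called 3293 genes higher and 3292 lower. With library totals alone the median of all genes was -0.40 in place of -0.05, and 37.9% of calls were higher in place of 51.6%. The median of all genes was -0.60 with no minimum on counts. Of 42 counts of pathway lists, 14 moved by over 1.5 times, 12 of them without the block, and the others with DESeq2 (ligands, 5 higher) and with no minimum (co-receptors, 1 lower). Depth limits FGFR2 and FGFR3 in DU145 and SW1990 and FGFR4 in the SW1990 input, with 172 fragments. No line has a replicate, and no control pull-down was analysed here.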
